A study of Mus musculus with 2 samples.

Results

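The genes described here are those that encode the proteins of the cytosolic ribosome, with their paralogs, in cells labelled as mouse megakaryocyte-erythroid progenitors. Such progenitors are bone marrow cells able to form platelets or red cells. Members were the protein-coding genes of the GENCODE M21 annotation whose symbol starts with Rpl or Rps and a digit, with Rplp0, Rplp1, Rplp2 and Rpsa, and without the Rps6k kinases. The rule found 92 genes, all of them in the deposited tables, among 43346 annotated genes of which 21474 were protein-coding. Main genes, meaning the genes for the standard subunit proteins, numbered 77: 46 of the large (60S) and 31 of the small (40S) subunit. A further 8 members were paralogs (Rpl3l, Rpl7l1, Rpl10l, Rpl22l1, Rpl36al, Rpl39l, Rps27l and Rps27rt), 6 carried a pseudogene-like name although typed protein-coding, and 1, Rps19bp1, encodes a binding protein and matched by name only.

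Both libraries belong to 1 group with no other condition, so there was nothing to compare it with. The cells came from C57BL/6J females 5 weeks old, and no treatment or engineered allele is named. The labels describe the cells by the surface markers CD16/32 and CD34, the second marked with a minus sign. They number the libraries as biological replicates 1 and 2 and give both the same donor identifier, so the spread between them may be partly technical. Each was a paired-end library of polyadenylated RNA with a fragment size label above 175 bases. In bulk RNA, fewer cells of a type and less RNA per cell cannot be told apart.

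A ribosome joins a large and a small subunit, and each subunit holds a single copy of nearly all its proteins beside the ribosomal RNA. The acidic stalk proteins P1 and P2 are the exception, present in several copies and held to the large subunit by P0. Most of these mRNAs begin with a run of pyrimidines directly at the cap, the 5′ terminal oligopyrimidine tract, through which growth signals control their translation. Heterozygous loss of many of these genes causes Diamond-Blackfan anemia, in which red cell precursors fail.

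The start sites of the members are shown first, since the pyrimidine tract is the sequence feature this gene family shares. Each line holds 30 bases around a start site annotated by RefSeq on GRCm38.p6, 15 on each side with the start as base 16, and capitals mark the longest unbroken run of C or T, the first where runs tie. In Rpl28 and Rplp2 the capitals span the start, in Rps15a they end before it and a shorter run in lower case spans the start, and Rps15 has no such run there. Rps27, its retrocopy Rps27rt and its paralog Rps27l follow, then Rpl22l1.
Rpl28, chr7:4792950-4792979, plus strand: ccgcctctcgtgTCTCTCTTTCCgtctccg
Rplp2, chr7:141447636-141447665, plus strand: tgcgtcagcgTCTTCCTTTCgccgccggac
Rps15a, chr7:118116133-118116162, minus strand: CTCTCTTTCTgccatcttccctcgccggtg
Rps15, chr10:80292416-80292445, plus strand: CCCggcagagctcgcgataactgcgcaagc
Rps27, chr3:90213634-90213663, minus strand: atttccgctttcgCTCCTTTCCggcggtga
Rps27rt, chr9:114982725-114982754, minus strand: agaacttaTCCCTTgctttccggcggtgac
Rps27l, chr9:66946071-66946100, plus strand: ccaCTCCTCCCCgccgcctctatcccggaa
Rpl22l1, chr3:28805493-28805522, plus strand: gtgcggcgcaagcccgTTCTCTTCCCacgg

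RefSeq start sites were matched by symbol for 57 of the 77 main genes and for all 8 paralogs. A C followed by at least 4 more pyrimidines lay exactly at any annotated start in 13 of the 57 main genes (22.8%), against 3.01% of all 27025 genes in the table. Allowing the C to lie up to 5 bases away gave 27 main genes (47.4%, against 21.2%), and any run of 8 pyrimidines within 30 bases gave 32 (56.1%, against 25.8%). Of the paralogs, Rps27rt alone had the tract at its start, and Rpl22l1, Rps27l and Rps27rt had it within 5 bases. The motif CCGGAAG, read on both strands of the whole window of 250 bases before and 50 after the start, was present in 24 of the 57 main genes (42.1%) and in 9.93% of all genes. AAGATGGC was present in 5 (8.77%, against 3.19%) and TATAAA in 6 (10.5%, against 15.7%). Read on the other strand CCGGAAG is CTTCCGG, so its pyrimidines can overlap a tract. These counts describe annotated letters only.

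The paralog pairs differ in how far their coding sequences have moved apart. By global alignment of GENCODE M21 coding sequences, identity to the namesake gene was 54.5% for Rpl7l1, 67.5% for Rpl22l1, 73.3% for Rpl3l, 76.1% for Rps27l, 84.8% for Rpl10l, 85.3% for Rpl39l and 87.9% for Rpl36al. Rps27rt was identical to Rps27 over all 255 bases. Rps27 with Rps27l and Rpl39 with Rpl39l are printed in full because 1 paralog stood above its namesake and the other far below it, with coding sequences of equal length within each pair. Capitals mark the bases that differ within a pair, 61 in the first and 23 in the second, and coordinates are the gene spans on GRCm38.
Rps27, chr3:90212522-90213651, minus strand: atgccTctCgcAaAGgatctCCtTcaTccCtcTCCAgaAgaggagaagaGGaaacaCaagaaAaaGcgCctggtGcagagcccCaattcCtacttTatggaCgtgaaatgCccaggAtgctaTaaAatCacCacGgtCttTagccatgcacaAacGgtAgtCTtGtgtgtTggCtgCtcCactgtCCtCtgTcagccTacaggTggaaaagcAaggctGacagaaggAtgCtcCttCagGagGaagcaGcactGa
Rps27l, chr9:66946086-66949516, plus strand: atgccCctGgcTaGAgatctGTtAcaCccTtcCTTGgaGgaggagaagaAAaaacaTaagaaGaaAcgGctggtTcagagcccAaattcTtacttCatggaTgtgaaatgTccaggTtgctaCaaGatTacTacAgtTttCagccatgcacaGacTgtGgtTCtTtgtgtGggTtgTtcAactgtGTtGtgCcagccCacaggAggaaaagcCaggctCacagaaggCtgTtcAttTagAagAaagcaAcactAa
Rpl39, chrX:37082520-37085402, minus strand: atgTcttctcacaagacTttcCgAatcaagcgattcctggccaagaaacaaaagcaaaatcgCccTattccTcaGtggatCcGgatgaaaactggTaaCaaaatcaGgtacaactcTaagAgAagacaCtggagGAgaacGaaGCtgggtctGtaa
Rpl39l, chr16:10170226-10174911, plus strand: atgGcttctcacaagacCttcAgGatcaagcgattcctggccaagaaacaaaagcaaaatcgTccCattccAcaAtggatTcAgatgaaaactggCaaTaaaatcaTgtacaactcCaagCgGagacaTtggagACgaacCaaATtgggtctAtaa

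Transcript levels are given as TPM (transcripts per 1000000), which scales for length and makes genes comparable within a library. All 77 main genes reached a TPM of 1 in both libraries. Of the 92 members 87 did so, where 46.9% of all protein-coding genes did. The 5 members below that level were the paralogs Rpl3l, Rpl10l and Rpl39l and the pseudogene-like Rpl9-ps1 and Rpl36-ps4. Members held 21.8% of all TPM in replicate 1 and 21.4% in replicate 2, but 8.76% and 8.45% of the estimated read counts, since short mRNAs weigh more in TPM. Of the 100 protein-coding genes with the highest mean TPM 38 were main genes, as were 12 of the highest 20.

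Levels differed widely among proteins that, stalk proteins aside, enter the ribosome in equal numbers. The median main gene stood at a TPM of 818 in replicate 1 and 984 in replicate 2 (901 ± 117, SD, n = 2). The 90th percentile lay 66.8 and 61.4 times above the 10th, and the SD of log2 TPM over main genes was 2.36 in both libraries. For all protein-coding genes at a TPM of 1 or more the same ratio was 67.3 and 62.8 and the SD 2.33 and 2.30. Main genes were thus spread about as widely around their median as all detected genes. That depends on the cut at a TPM of 1. Over all protein-coding genes with a TPM above 0 the SD was 3.84 and 3.94. There were 38 main genes at a mean TPM of 1000 or more, 33 between 100 and 1000, and 6 below 100. Rplp1 alone gave 14.8% and 12.4% of main-gene TPM, and the highest 10 genes gave 54.0% and 51.5%.

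**Figure D1:**
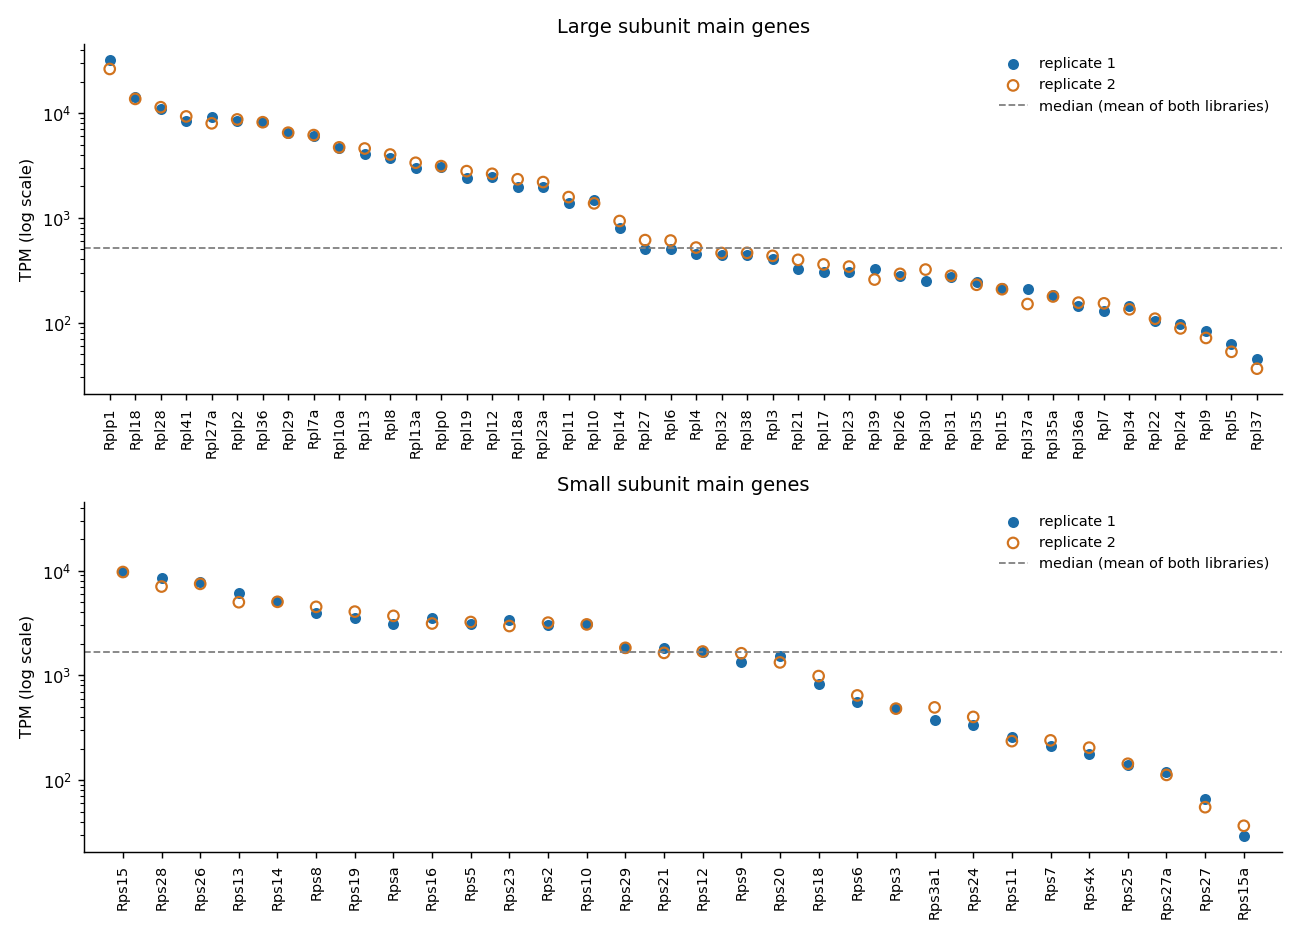
TPM of main genes (log axis) in replicate 1 (filled) and replicate 2 (open), ordered by mean level, for the large subunit (top) and small subunit (bottom). Dashed lines are the subunit medians; the 2 libraries nearly overlap for each gene while genes span from a TPM of 29.3 to 32175.

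In the large subunit the stalk gene Rplp1, at chr9:61913284-61914542 on the minus strand, was the highest of all protein-coding genes, at a TPM of 32175 in replicate 1 and 26368 in replicate 2. Its partner Rplp2 stood at 8445 and 8693, and Rplp0, the base of the stalk, at 3034 and 3114. The stalk genes were thus well apart from each other, and their order P1, P2, P0 was the same in both libraries. Rpl18 (14100 and 13653), Rpl28 (10901 and 11372), Rpl41 (8483 and 9288) and Rpl27a (9190 and 7979) followed Rplp1 by mean level. Rpl41 encodes the shortest protein of the ribosome. Rpl41 and Rpl27a changed places between the libraries. The level of Rpl27a rests largely on Rpl27a-204, a 350-base model typed as retained intron, with 74.2% and 71.2% of its TPM. Models typed protein-coding held 23.0% and 24.6% of Rpl27a TPM but 58.4% and 60.5% of its counts.

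At the other end of the large subunit Rpl37 stood at 44.9 and 36.3, and Rpl5 at 63.0 and 52.5. Rpl5 binds 5S ribosomal RNA together with Rpl11, and the same complex holds back Mdm2, the ligase that degrades p53. Rpl11 stood at 1390 and 1577, far above Rpl5 in both libraries. Rpl9 was measured at 83.1 and 71.2, Rpl24 at 97.2 and 87.9, and Rpl22 at 103 and 109. All 3 assigned levels lay far below the large-subunit median of 477 and 563. For Rpl24 this depends on how reads were divided, since Gm28037, which overlaps it on the genome, stood at 405 and 456. Rpl5 too has a copy that was assigned a higher level, given below.

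In the small subunit Rps15 was highest (9609 and 9691), ahead of Rps28 (8445 and 7041), Rps26 (7756 and 7470), Rps13 (6133 and 4987) and Rps14 (5078 and 5032). Rps26 lies at the mRNA exit channel, and Rps14 is the gene whose loss underlies the anemia of the human 5q deletion. Rpsa, which also goes by the name of laminin receptor, stood at 3073 and 3695. The lowest by assigned level were Rps15a (29.3 and 36.6), Rps27 (66.3 and 55.1), Rps27a (120 and 112), Rps25 (139 and 143) and Rps4x (177 and 204). Rps25 has pseudogene copies at 373 and 357, and Rps27 shares its coding sequence with Rps27rt. The levels of Rps25 and Rps27 thus depend on how reads were divided. Rps27a is made as a fusion with ubiquitin. The lowest 2 lay below every other small-subunit gene in both libraries.

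The median log2 TPM of large-subunit genes was below that of small-subunit genes by 1.81 in replicate 1 and 1.54 in replicate 2. The difference was -1.68 ± 0.19 (SD, n = 2) and moved to -0.79 when log2 CPM, which does not divide by length, was used. Median TPM was 477 and 563 for the large and 1670 and 1638 for the small subunit, and the ranges overlapped, from 44.9 to 32175 in the large and from 29.3 to 9609 in the small subunit in replicate 1. Because the genes are no replicates, no p is given.

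Of the 8 paralogs 7 differed from their namesake by more than 2-fold on average, in the same direction in both libraries and with separate deposited intervals. The median paralog stood at a TPM of 8.32 and 8.15 (8.23 ± 0.12, SD, n = 2). Of these 7, 6 lay below the namesake and Rps27l lay above it.

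Rps27l was at a TPM of 120 in replicate 1 and 138 in replicate 2, and Rps27 at 66.3 and 55.1. The paralog, a p53 target in mouse and human cells, was the higher of the pair in each library. The log2 ratio was 1.09 ± 0.33 (SD, n = 2), but replicate 1 alone gave 0.86, short of 2-fold. On estimated counts the ratio was 2.75. Rps27 is modelled in the deposited data by 1 transcript of 255 bases, where GENCODE M21 gives that transcript 345. A shorter model gives a higher TPM for the same reads. That model also has the length of the coding sequence, which is identical in Rps27rt, so its reads may fit both genes. The level of Rps27 may thus be too high or too low, and the ratio is uncertain.

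Rps27rt, at chr9:114982366-114982739 on the minus strand, is a retrocopy of Rps27 and stood at 22.2 and 9.54. Its log2 ratio to Rps27 was -2.05 ± 0.67 (SD, n = 2), and -1.04 on estimated counts. Because the coding sequences of both are identical, reads that fall within them cannot be assigned by sequence, and both levels are uncertain.

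Rpl36al is an autosomal relative of the X-linked Rpl36a and encodes a closely similar protein. It stood at 91.1 and 89.2, and Rpl36a at 143 and 155. This was the pair not called, with a log2 ratio of -0.72 ± 0.11 (SD, n = 2).

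Rpl22l1 stood at 9.20 and 9.22, and Rpl22, known for its part in lymphocyte development, at 103 and 109. The log2 ratio was -3.52 ± 0.05 (SD, n = 2). By deposited posterior mean it was -3.19 and on estimated counts -3.91, both well beyond that spread. Models typed protein-coding held 25.7% and 36.4% of Rpl22l1 TPM. The leading model of Rpl22l1 differed between the libraries, so the size of this ratio is less certain than its SD. Rpl7l1 stood at 7.43 and 7.07 and Rpl7 at 128 and 152, a log2 ratio of -4.27 ± 0.23 (SD, n = 2). On estimated counts, which are not divided by length, it was -2.36. Rpl7l1 is counted as a paralog by its name, and its coding sequence is the least similar of the 8.

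The other 3 are known as tissue-restricted paralogs. Rpl3l, the form of Rpl3 in heart and skeletal muscle, stood at 0.63 and 0.86 from 48 and 52 counts, against 401 and 433 for Rpl3. Rpl39l, a form abundant in male germ cells, stood at 0.32 and 0.20 from 14 and 7 counts, against 323 and 257 for Rpl39. Rpl10l, which stands in for the X-linked Rpl10 in male germ cells, had 0 counts in both libraries, against 1480 and 1374 for Rpl10. Their log2 ratios were -9.13 ± 0.24 for Rpl3l and -10.10 ± 0.23 for Rpl39l (SD, n = 2). With 1 TPM added to both genes they were -7.91 and -7.84, so the size of these low ratios, and which of them is larger, depends on the value added. With 3 counts per library as the floor, Rpl10l was at least 28842-fold lower than Rpl10 in replicate 1 and at least 21276-fold lower in replicate 2.

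**Figure D2:**
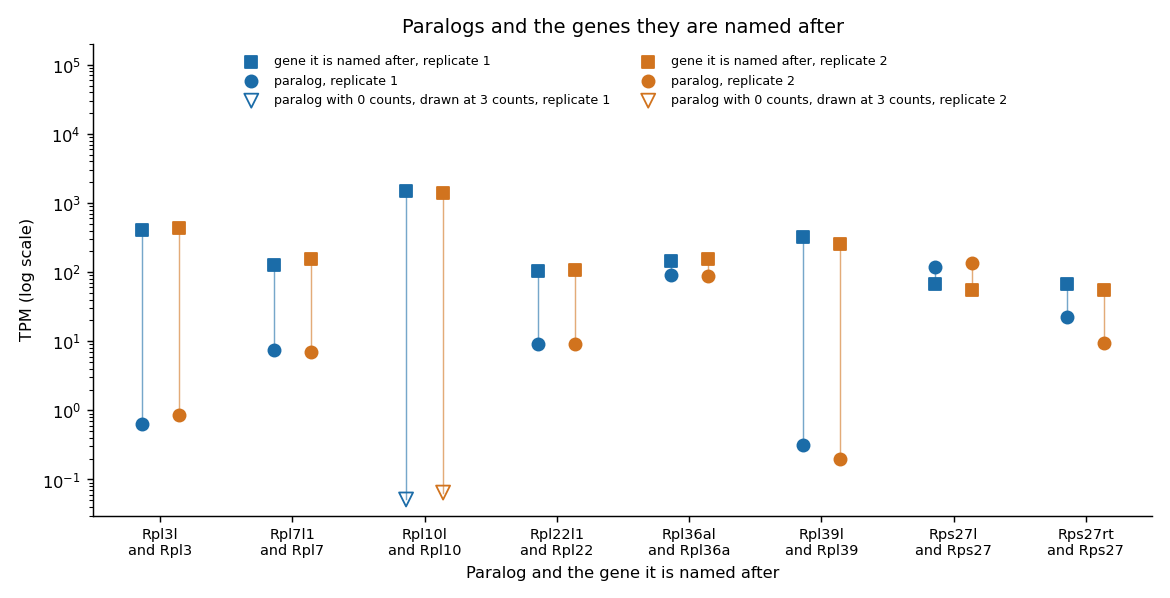
TPM (log axis) of each paralog (circle) and the gene it is named after (square) in replicate 1 (blue) and replicate 2 (orange). Rps27l alone lies above its namesake, and Rpl10l, with 0 counts, is drawn as an open triangle at the TPM that 3 counts would give.

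Among members whose human counterparts are linked to Diamond-Blackfan anemia, all 19 were detected in both libraries. Their median TPM was 326 in replicate 1 and 292 in replicate 2 (309 ± 24.0, SD, n = 2), below the 818 and 984 of all main genes. Both medians depend on how reads were divided among copies. Pseudogene copies held 65.3% and 67.8% of the summed TPM for Rpl5, 38.5% and 34.2% for Rpl27, and 27.3% and 26.2% for Rps10. Such copies held 10% or more in both libraries for 12 of all 77 main genes. The 19 members ran from Rpl18 at 14100 and 13653 to Rps15a at 29.3 and 36.6. Rps19, the gene most often mutated in the disease, stood at 3538 and 4058. Rpl35a was measured at 183 and 177, Rpl26 at 280 and 292, and Rps24 at 333 and 401. Of the 19, 13 were higher in replicate 1 on CPM, where 50.9% of protein-coding genes were, and 10 on TPM, where 40.0% were. None was called different between the libraries, and of protein-coding genes 1.37% were, so a count of 0 among 19 is near the background.

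Fau and Rack1, ribosomal proteins that the name rule misses, were at levels within the range of the main genes. Fau, a fusion of a ubiquitin-like protein with small-subunit eS30, stood at 4800 and 5201. Rack1, a signalling scaffold on the small subunit, stood at 5000 and 4382. Among 14 other mRNAs known for a pyrimidine tract, all were detected and the median TPM was 249 and 375. Eef2, the translocation factor, stood at 2416 and 2671, and Eif3e, an initiation factor subunit, at 12.5 and 14.1. Tsr2, the chaperone of Rps26, stood at 19.0 and 17.7, and Grwd1, a chaperone of Rpl3, at 61.4 and 61.1. Trp53 (p53) stood at 108 and 113 and Mdm2 at 57.9 and 62.3.

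The libraries held 79539457 and 65305321 estimated counts, and the biological coefficient of variation between them over 13546 genes was 21.8%. All 8 erythroid and megakaryocytic markers were detected in both, with a median TPM of 82.0 and 104, and no T cell marker of 4 reached a TPM of 1 in both. Markers of granulocytes and monocytes were detected too, 6 of 6, with a far higher median TPM of 4963 and 2570. The label names megakaryocyte-erythroid progenitors, yet the median granulocyte and monocyte marker stood higher, and why was not tested. Granulocyte and monocyte markers summed to a TPM of 31034 in replicate 1 and 16992 in replicate 2. The 4 B cell markers were detected in both and summed to 63.28 and 20.97. So both lists were higher in replicate 1, and erythroid markers lower (a sum of 894 against 1329), and the part of this in the values of the members was not tested.

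Differences between the libraries were small for the main genes. Fold differences were taken from CPM (counts per 1000000) scaled with TMM factors, and the CPM values printed are relative to each library's total. Of the 85 members with a mean TPM of 5 or more, 1 was over 2-fold apart with separate intervals, where 1.37% of 7653 protein-coding genes were. This was Rps27rt, at 4.25 CPM in replicate 1 and 1.75 in replicate 2. No main gene of 77 was, and at 1.5-fold Rpl37a alone joined it, at 77.6 and 53.5 CPM (background 8.28%). Rpl37a encodes a zinc-binding protein of the large subunit.

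The direction of the remaining small differences depended on the scale. On CPM 46 of the 77 main genes were higher in replicate 1, against 50.9% of protein-coding genes, with a median log2 difference of 0.07. On TPM only 29 were higher in replicate 1 and 48 in replicate 2, against 40.0% of protein-coding genes higher in replicate 1. The median over all members was 0.06 on CPM and -0.05 on TPM. Protein-coding genes at a mean TPM of 100 or more had a median of 0.06 on CPM, close to that of the members. With 1 library against 1 these differences have no replicate check.

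After Rps27rt, the largest CPM differences toward replicate 1 were in Rpl39l (0.64 on the log2 scale, from 14 and 7 counts), Rpl37a (0.60), Rpl39 (0.44) and Rps27 (0.42). Rplp1, the most abundant, was at 9507 and 7487 CPM. Toward replicate 2 they were in Rpl36a-ps1 (-0.53, from 22.4 and 28.2 counts), Rpl3l (-0.33), Rps3a1 (-0.29), Rpl9-ps6 (-0.28) and Rpl22l1 (-0.24). Rps3a1, at 261 and 333 CPM, encodes a protein near the mRNA exit of the small subunit. The other 4 were paralogs or pseudogene-like.

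**Figure D3:**
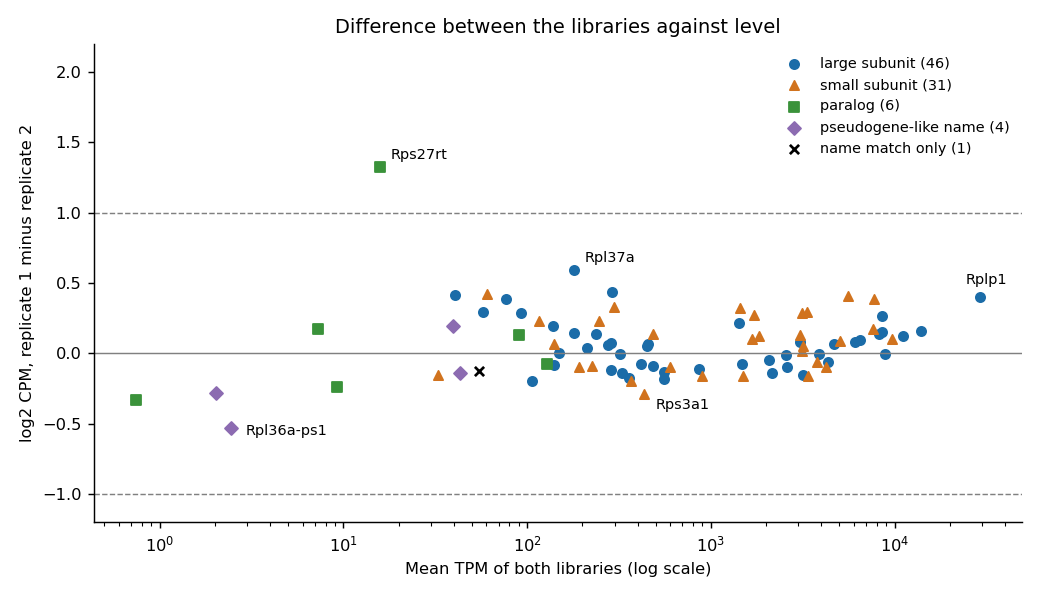
log2 CPM of replicate 1 minus replicate 2 against mean TPM (log axis) for the 88 members past the count filter, by class. Dashed lines mark 2-fold; Rps27rt at 1.33 lies beyond them, and no other member does.

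Ribosomal protein genes have many processed pseudogenes, so the share of reads assigned elsewhere was measured. Genes typed as pseudogenes and named after a member numbered 251, of which 143 had 0 TPM in both libraries. They held 1.30% and 1.36% of the TPM of members and pseudogenes together. A search by sequence, at 90% identity over 50% of the coding sequence, found 280 pseudogene copies, which held 4.17% and 4.76%. Of the 77 main genes 68 had a copy, and for 37 the copies held under 1% in both libraries. For 12 they held 10% or more in both, and for 3 they held more than the gene itself.

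Those 3 were Rps25, Rpl23a and Rpl5. Rps25 stood at 139 and 143 and its copies at 373 and 357, nearly all in Rps25-ps1. Rpl23a stood at 1964 and 2194 and its copies at 4247 and 5429, of which Gm10335 gave 3968 and 5095. Rpl5 stood at 63.0 and 52.5 and its copies at 119 and 111, nearly all in Gm15500, whose match to the coding sequence was 100% identical. In each case the assigned TPM of the gene was below that of a near-identical copy in both libraries. The gaps were smaller on estimated counts, which are not divided by length. Rps25 had 4985 and 4076 counts against 5876 and 4412 for its copies. Rpl5 had 6860.5 and 4792 against 6913.5 and 5120, a nearly even split.

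Copies outside the pseudogene type stood above the gene for Rpl35 and Rpl24. Gm2000, typed protein-coding and 99.7% identical to the Rpl35 coding sequence, stood at 1134 and 1452 against 245 and 229 for Rpl35. Gm28037 overlaps Rpl24 on the genome and stood at 405 and 456 against 97.2 and 87.9. Of the 6 pseudogene-like members 5 were found as copies by sequence, and Rpl36-ps4 was not. Rps12-ps3 stood at 39.3 and 47.0, Rpl10-ps3 at 40.8 and 38.5, Rpl36a-ps1 at 1.87 and 3.01, Rpl9-ps6 at 1.76 and 2.31, and Rpl9-ps1 and Rpl36-ps4 had 0 counts. Levels of all genes named in these paragraphs are uncertain to the extent that reads fit both copies.

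The deposited posterior SD of the count was at 5% or more for none of the 85 members with 100 counts in both libraries, where it was for 0.407% of protein-coding genes. TPM lay outside its own deposited interval for 40 of 87 members in replicate 1 (background 3.2%) and 43 of 87 in replicate 2 (background 4.75%), always above it. TPM also exceeded the posterior mean by a median factor of 1.01 in both libraries over genes at a TPM of 100 or more. After the interval was scaled by the median factor of its library no member lay outside (background 0.555% and 0.693%). A TPM outside its interval was therefore not read as a sign of shared reads.

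Transcript tables gave the share of each gene in transcripts that the annotation types as protein-coding. Its median over main genes was 99.5% in replicate 1 and 99.7% in replicate 2, and 41 of 77 had a mean share of at least 99%, where 50.6% of protein-coding genes at a TPM of 1 or more did. In both libraries 13 of 77 were under 50%, where 17.8% of those protein-coding genes were. Both counts are near the background. The same transcript led in both libraries for 74 of 77.

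In Rpl12 the protein-coding share was 1.10% and 1.97%, and the retained-intron model Rpl12-202 led with 85.7% and 82.9%. In Rps18 the share was 2.02% and 1.31%, with the processed-transcript model Rps18-209 at 85.7% and 87.0%. In Rps19 it was 5.10% and 5.64%, with the retained-intron model Rps19-206, 395 bases long, at 92.3% and 93.7%. These 3 were the lowest, in both libraries. A retained-intron model led in 6 main genes and a processed-transcript model in 4. Rpl18 (67.0% and 66.9%) and Rpl13a led with a model not found in GENCODE M21, which counts as not protein-coding here, Rpl13a in replicate 1 only. The levels of Rpl12, Rps18 and Rps19 thus rest largely on models with no annotated protein.

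**Figure D4:**
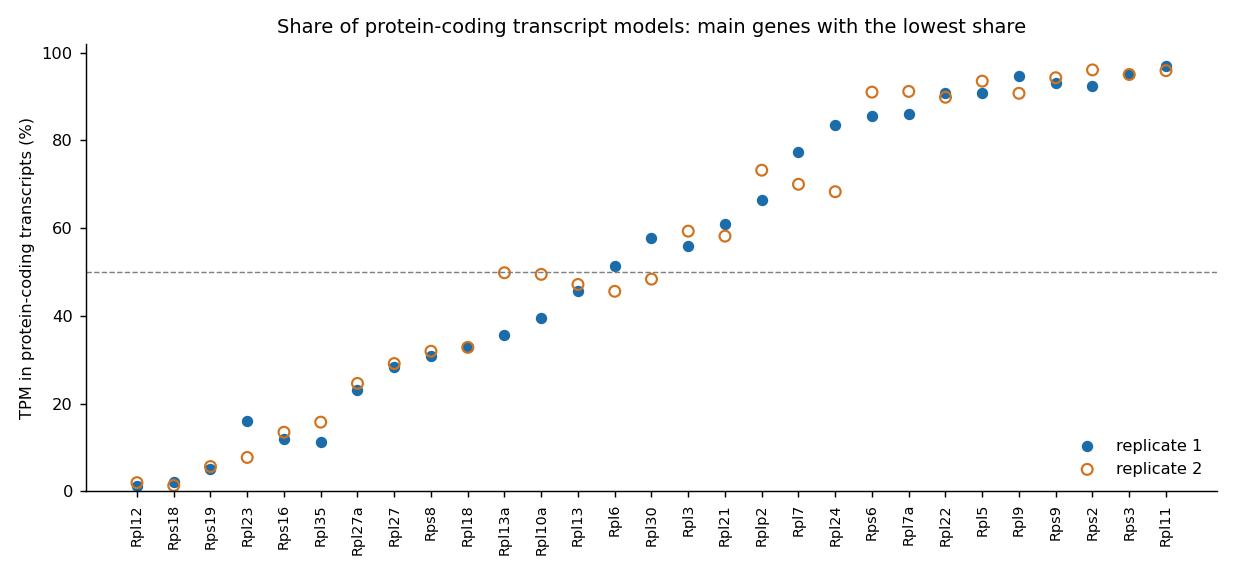
Percent of TPM in protein-coding transcript models for main genes with the lowest share, in replicate 1 (filled) and replicate 2 (open). The dashed line is 50%; Rpl12, Rps18 and Rps19 lie at 5.64% or less in both libraries.

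The level of main genes went with the GC content of their transcripts. Across the 77 genes Pearson's r between GC percent and mean log2 TPM was 0.60 and Spearman's rho 0.62, and across 10337 protein-coding genes 0.35 and 0.36. Genes of 1 library share its preparation and depth, and are not independent, so no p is given. The 26 main genes of lowest GC (41.4% to 50.6%) had a median TPM of 259 and 248, the 25 in the middle 501 and 612, and the 26 of highest GC (54.0% to 60.8%) 3632 and 4039. Rps20, with the lowest GC at 41.4%, stood at 1539 and 1328, and Rpl35, at 60.5%, at 245 and 229. Both lay off the trend at their assigned levels. For Rps20 both GC and TPM rest on 1 model of 3706 bases, Rps20-203, with 99.1% and 98.4% of its TPM. Its effective length was 3537 and 3510, against a main-gene median of 532 and 529. Without division by length Rps20 stood at 4528 and 3775 CPM, against a main-gene median of 467 and 453. For Rpl35 this depends on how reads were divided, since its near-identical copy Gm2000 stood at 1134 and 1452. With log2 effective length r was -0.20 and rho -0.28. GC content showed no such relation with the difference between libraries (r = -0.03, rho = 0.06), while effective length had r = -0.29 and rho = -0.42.

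**Figure D5:**
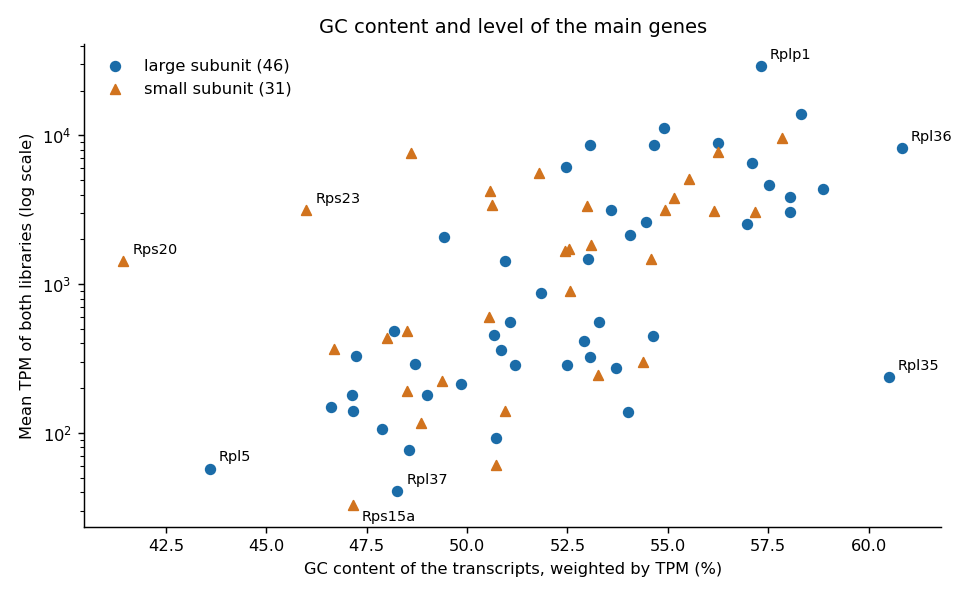
Mean TPM of both libraries (log axis) against the TPM-weighted GC content of the transcripts for the 77 main genes, by subunit. Genes of high GC tend to lie higher, with Rps20 and Rpl35 away from the trend at their assigned levels.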

How the data were processed

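Poly(A) RNA was sequenced from 2 libraries of 1 group. The tables of both were deposited by the authors with estimated counts, TPM and FPKM per gene and transcript, a posterior mean and SD of the counts (used as a score), interval bounds of TPM (an upper and lower signal level) and the percent of a gene in each transcript. Per the text files the authors deposited, the build was mm10 with GENCODE M4. The sources used here do not name the aligner, the counter or the strand setting. The tables' 69691 rows include 26248 numeric identifiers and 97 spike-ins, which were left out; 43346 gene rows remained, of which 884 had no GENCODE M21 match.

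Estimated counts were rounded and scaled with edgeR 4.0.16 (TMM, prior count 2; R 4.3.3), with DESeq2 1.42.0 size factors as an alternative. For paralog ratios 0.01 TPM was added to both genes, and a call needed a mean log2 ratio beyond 1, the same sign and separate intervals in each library. Members differed between libraries when over 2-fold apart with separate intervals at a mean TPM of 5 or more; both rules carry no p. Only the 2-fold cut on CPM was checked on simulated counts, with a smaller spread than the 21.8% between these libraries. The interval condition, the paralog rule and the division of reads among copies were not checked in this way. Copies were found with blastn 2.17.0. Some genes that enter the counts and medians are not reported here by name.

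Genes were named by this rule: the 5 highest and 5 lowest main genes of each subunit by mean TPM, stalk genes and Rpsa, all paralogs, members over 2-fold apart or under a TPM of 1, the 5 largest differences each way, the Diamond-Blackfan members and the other lists; further names (the copies, Rpl12, Rps18, Rps20 and the like) were chosen after their values were seen. Members and lists were chosen with earlier results of these data known. The copy search and its thresholds, GC and length relations, transcript length comparison, posterior SD threshold of 5%, interval scaling, coding-share thresholds of 50% and 99% (the second first run at 99.5%), and the run of 8 pyrimidines were added after seeing the data. The tolerance for calling the median shift between libraries unmoved was set by hand, since a difference of 2 libraries has no spread, so all its alternative values are printed.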

Additional observations from a re-analysis of the deposited data

How the results depend on the processing

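Of 92 alternative values 76 were labelled as unmoved. Of these 76, 39 were ratios of single paralog pairs, where the label does not mean that the size held. On estimated counts Rps27l to Rps27 went from 1.09 to 2.75 on the log2 scale, and Rpl7l1 to Rpl7 from -4.27 to -2.36. With 1 TPM added Rpl39l to Rpl39 went from -10.10 to -7.84. All 3 carried the label. The median shift of members between the libraries was 0.06 on TMM-scaled CPM and 0.06 with DESeq2 size factors, 0.06 without the count filter, 0.07 as a mean, 0.0042 without a scaling factor, and reversed to -0.049 on TPM. The share of members was 8.61% on counts against 21.6% on TPM. Median main-gene level was 739 in FPKM against 901 in TPM, and the median paralog 8.73 by posterior mean against 8.23. The subunit difference was -0.79 on log2 CPM against -1.68. The SD among main genes was 2.33 on log2 CPM, 2.36 by posterior mean and 2.30 with pseudogene copies added. At 1.5-fold 2 members were apart in place of 1. Scaling the interval took the members outside it from 40 to 0. The pseudogene share was 1.02% on counts and, with copies by sequence, 4.46%, against 1.33%. Tracts went from 13 genes to 27 within 5 bases and 32 by a run of 8.

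Leaving out either library, Rps27l over Rps27 was 0.86 to 1.32 on the log2 scale, and 6 or 7 pairs were called. No paired analysis was possible because there is 1 group. No alternative changed which gene of a pair was higher. Levels of genes with near-identical copies depend on how reads were divided.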
